A study of Saccharomyces cerevisiae with 14 samples.

Results

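Transcripts of stationary yeast cultures were compared with those of exponentially growing cultures, both without metformin. The comparison used 7 of the 14 libraries of the study, the 3 labelled stationary and the 4 labelled exponential that received 0 mM of the drug, and every feature of the count table. The study compares growth phase and 50 mM metformin, a biguanide used against type 2 diabetes, in the budding yeast Saccharomyces cerevisiae. The labels give all cultures, controls included, a single haploid genotype. It is MATa and LEU2, with the deletions ura3D0, lyp1D, his3D1 and his3D::kanMX4. By that genotype the pyruvate decarboxylase gene is joined to a red fluorescent protein in every library (PDC1-RFP-CaURA3MX4). The arginine permease locus is given as can1D::STE2pr-SpHIS5, a histidine marker driven by the promoter of the a-cell gene STE2. Per the labels' protocols, colonies were precultured for 24 h in 10 mL of synthetic complete medium of pH 4, shaken at 200 rpm and 30 °C, and cultures of 50 mL were started from them at an optical density of 0.05. Directional libraries were made from total RNA after removal of ribosomal RNA. The labels speak of individual colonies but do not tie a library to a colony. The p-values thus measure only how these samples spread, which may be technical.

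A yeast culture that has glucose ferments it to ethanol while dividing fast, and much of its transcription then serves ribosomes. When glucose runs out, cells switch to respiring the ethanol and acetate they made, a change called the diauxic shift. As those carbon sources are used up, cells stop dividing, store carbohydrate, make protective proteins and enter stationary phase, the state in which yeast chronological lifespan is measured.

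Gene counts summed to 44980672 to 59443572 in the exponential libraries and 48488540 to 55864799 in the stationary ones. Nuclear protein-coding genes held 37506300 to 51465400 of these counts in the exponential libraries and 12575700 to 16632100 in the stationary ones. Counting error is thus small for all but the rarest transcripts, but larger for protein-coding genes in the stationary libraries. Levels are CPM, counts relative to a library size scaled with TMM (trimmed mean of M-values), which sets the typical gene equal between libraries. Values are given for exponential libraries 1 to 4 and then stationary libraries 1 to 3, and means carry the SD over those 4 and 3 libraries. Among the genes given with CPM values of both phases, MET17 was the one whose libraries overlapped between the phases. HSP30, RGI1 and SSA4, given further below for the exponential libraries only, overlapped as well. The largest rises and falls were chosen with no overlap as a condition. All 9 marker genes of stationary phase were higher in the stationary libraries, against 42.4% of all features tested. The markers include SNZ1, a vitamin B6 synthesis gene, and HSP12, a membrane hydrophilin. They do not stand for whole classes of genes. Markers SSA3 and HSP26 were the only 2 of 27 heat shock chaperones called higher, while 19 were lower. Of 22 hydrophilin and stationary phase genes, 16 were higher and 3 lower. Some libraries stood apart within a group. MET17, the sulfhydrylase that makes homocysteine, had 102 and 124 CPM in exponential libraries 1 and 2, no read in libraries 3 and 4, and 22.4 to 24.1 CPM in the stationary libraries, although the labels give all of them the same genotype. MET17 was chosen after its values were seen. Among 4823 genes of at least 10 CPM in the exponential group, 147 ranged over more than 2-fold between its libraries. Library 3 was the farthest from the median in 134 of these, and low in 129 of the 134. In the stationary group 72 of 4711 genes ranged that widely, and library 3 was the farthest in 65. URA3 had no read in any library, HIS3 had 0 to 18 and LYP1 3 to 50, while CAN1 was read at 1334 to 1877 counts in the exponential and 67 to 79 counts in the stationary libraries, against its deletion in the genotype.

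Most genes differed between the phases. Of 6097 features tested with edgeR's quasi-likelihood test, 5159 (84.6%) passed an adjusted p of 0.05, of which 2585 (42.4%) were higher and 2574 (42.2%) lower in stationary cultures. All 3 stationary libraries lay above all 4 exponential ones for 2546 features (41.8%) and below them for 2557 (41.9%). Called changes of more than 2-fold were found in 1555 features (25.5%) upward and 1539 (25.2%) downward. The extremes lay on the side of the rises. Among 5838 nuclear protein-coding genes, 310 were called and over 8-fold higher and 256 over 8-fold lower, but 12 were over 256-fold higher and 0 over 256-fold lower. The calls were similar in number without the exponential libraries, with or without metformin, that had at most 3 MET17 reads. Then 2482 were higher and 2475 lower. The equal split of directions rests on the scaling. With library size alone, log2 fold changes moved by -1.04 in the median and 1065 genes were higher and 4019 lower. With the total of nuclear protein-coding genes they moved by 0.62, and 3377 were higher and 1640 lower. Of 5838 genes tested in all 7 scalings, 957 were higher and 1640 lower in each. In bulk RNA, fewer cells of a kind and less RNA per cell cannot be told apart.

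**Figure D1:**
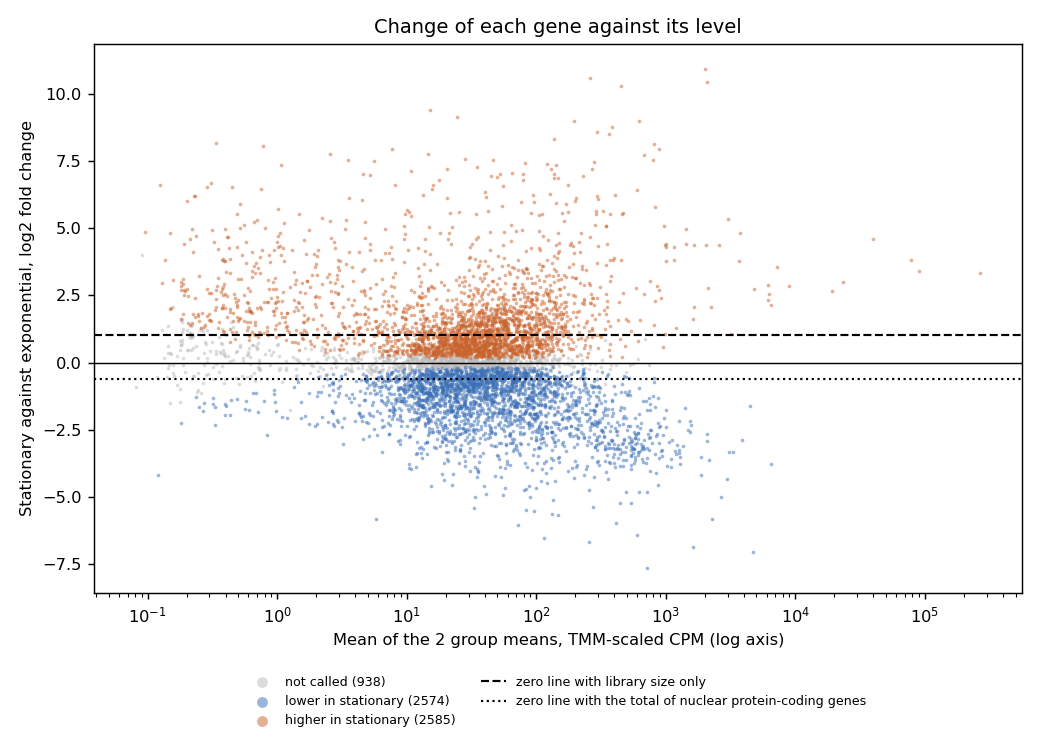
Log2 fold change of each feature, stationary against exponential, against the mean of both group means in TMM-scaled CPM on a log axis; orange and blue points are the 2585 higher and 2574 lower features and grey points did not pass. The dashed and dotted lines mark where zero would lie with library size alone and with the total of nuclear protein-coding genes, and the largest changes lie far from all 3 lines.

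The make-up of the RNA changed with the phase. Nuclear protein-coding genes took 84.7% ± 1.34 (SD, n = 4) of gene counts in exponential and 26.8% ± 2.89 (SD, n = 3) in stationary libraries. SCR1, the RNA of the signal recognition particle, went from 6.75% ± 0.526 (SD, n = 4) to 32.5% ± 1.66 (SD, n = 3). The small nucleolar RNAs, which guide processing and modification of ribosomal RNA, went from 5.32% ± 0.569 (SD, n = 4) to 19.5% ± 0.884 (SD, n = 3), and SNR17A, the U3 RNA, made up 2.17% and 11.1% of all gene counts. The spliceosomal RNAs LSR1 (U2) and SNR19 (U1) rose from 1.45% to 9.81% and from 0.44% to 5.14% of gene counts. Non-coding RNAs did not all move alike. SNR14, the U4 RNA, named here after its values were seen, fell (log2 fold change -1.34, SE 0.16, edgeR adjusted p = 1.55e-06), and of 75 snoRNAs tested 54 were higher and 6 lower. TLC1, the telomerase RNA, also named after its values were seen, took 0.0226% of gene counts in exponential and 0.0254% in stationary libraries, and these shares overlapped between the phases. In TMM-scaled CPM it was higher (log2 fold change 1.22, SE 0.14, edgeR adjusted p = 1.21e-06), and SCR1 had a log2 fold change of 3.32 (SE 0.22). With only nuclear protein-coding genes in the table, TMM moved log2 fold changes by 0.05 in the median and gave 2546 genes higher and 2474 lower.

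**Figure D2:**
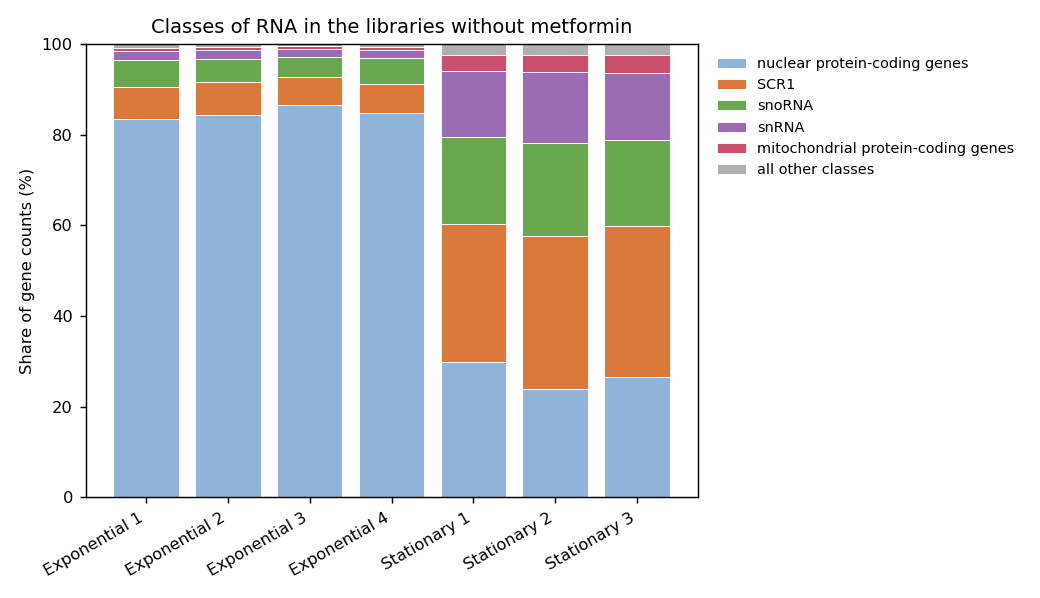
Share of gene counts, in percent, taken by each class of RNA in the 4 exponential and 3 stationary libraries without metformin; each bar is 1 library. Nuclear protein-coding genes fill 83.4% to 86.6% of the exponential bars and 24.0% to 29.8% of the stationary ones, and SCR1, snoRNA and snRNA fill most of the rest.

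The genes of the translation machinery were lower in stationary cultures. Of 137 cytosolic ribosomal protein genes, 135 fell and none rose, with a median log2 fold change of -2.99 against 0.02 over all features. Their share of nuclear protein-coding counts went from 22.2% ± 0.702 (SD, n = 4) to 4.70% ± 0.738 (SD, n = 3). RPS18B, a small subunit protein, was at 1045, 946, 970.4 and 1059 CPM in exponential libraries 1 to 4 and at 65.3, 58.5 and 68.5 CPM in stationary libraries 1 to 3. The phases lay apart without overlap (log2 fold change -3.97, SE 0.11, edgeR adjusted p = 7.05e-13). RPL9A, of the large subunit, fell from 1391 ± 109 to 49.3 ± 2.75 CPM, with 14.0% of its 50-base windows found elsewhere in the genome. Translation factors fell in 36 of 38 cases, median -1.27. With the total of nuclear protein-coding genes 29 of them fell and 3 rose, median -0.65. TEF4, an elongation factor 1B subunit, was at 971, 936, 1066 and 1014 CPM and then at 72.3, 82.6 and 58.8 CPM (log2 fold change -3.81, SE 0.14, edgeR adjusted p = 7.65e-12). Elongation factor EFT1 fell as well (log2 fold change -3.35, SE 0.11, edgeR adjusted p = 2.52e-12), but 91.9% of its windows recur elsewhere, so its reads cannot be told from those of a copy. The member that rose most was HEF3, another form of elongation factor 3, at 10.7, 10.3, 8.75 and 9.87 CPM in exponential and 243, 234 and 235 CPM in stationary libraries (log2 fold change 4.58, SE 0.12, edgeR adjusted p = 4.94e-13). The usual form, YEF3, named outside the rule, fell by 3.33 on the log2 scale and was still the more abundant at 595 CPM.

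Genes that build ribosomes were mixed. Of 122 biogenesis genes, 54 (44.3%) were lower and 30 (24.6%) higher, against 42.2% and 42.4% of all features. The other 38 passed in neither direction. The median of the biogenesis genes, -0.24, turned to 0.37 with the total of nuclear protein-coding genes. Their share of nuclear protein-coding counts was 1.67% ± 0.0833 (SD, n = 4) and 1.84% ± 0.247 (SD, n = 3). NOP56, a core protein of box C/D snoRNA particles, was at 389, 417, 428 and 426 CPM in exponential and 109, 105 and 79.4 CPM in stationary libraries. Its groups did not overlap (log2 fold change -2.08, SE 0.15, edgeR adjusted p = 1.03e-08). RRP1, needed for large subunit RNA processing, fell from 38.2 ± 2.60 to 9.33 ± 2.16 CPM. In the other direction PNO1, a small subunit assembly factor, had 50.3, 52.6, 57.1 and 52.9 and then 113, 106 and 84.2 CPM (log2 fold change 0.92, SE 0.12, edgeR adjusted p = 3.8e-06), with a log2 fold change of -0.12 under library size alone. Among 17 genes of RNA polymerase I, which transcribes ribosomal RNA, 12 fell and 3 rose, median -0.76, against 7 lower and 5 higher with a median of -0.15 when the total of nuclear protein-coding genes sets the scale. Its large subunits RPA135 (-2.22) and RPA190 (-1.73) fell, and its initiation factor RRN3 rose (log2 fold change 1.25, SE 0.21, edgeR adjusted p = 7.73e-05), which did not pass under library size alone.

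Biogenesis genes are known for a pair of shared promoter elements, and the NOP56 promoter is shown because it holds both. Capitals mark PAC (GATGAG) and RRPE (AAAATTTT), searched on both strands in the 300 bases before each annotated start. PAC was found before 91.0% of the biogenesis genes, 18.5% of all nuclear protein-coding genes tested and 11.7% of the ribosomal protein genes. RRPE was found before 77.9%, 9.60% and 6.57%. Neither string holds the other. Within the list, the 111 genes with PAC had a median log2 fold change of -0.23 and the 11 without it -0.27. The stretch is chrXII:545895-546024, plus strand, of RefSeq build R64.
NOP56: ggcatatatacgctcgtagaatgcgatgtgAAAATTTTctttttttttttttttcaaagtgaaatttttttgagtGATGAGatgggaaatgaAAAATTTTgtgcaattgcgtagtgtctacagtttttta

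Genes of glucose fermentation were mostly lower in stationary cultures, and genes for using acetate and fatty acids mostly higher. Of 23 genes of glycolysis and ethanol formation, 18 fell and 3 rose, median -2.15, and their share of nuclear protein-coding counts went from 10.3% ± 0.222 (SD, n = 4) to 2.21% ± 0.291 (SD, n = 3). ENO2, a glycolytic enolase, was at 9653, 8739, 9831 and 8883 CPM in exponential and at 50.8, 67.6 and 90.2 CPM in stationary libraries (log2 fold change -7.06, SE 0.22, edgeR adjusted p = 1.62e-12), and 23.6% of its windows recur elsewhere. PDC5, a pyruvate decarboxylase, fell furthest of all genes named by size, from 1352, 1024, 1942 and 1333 CPM to 7.87, 7.50 and 5.82 CPM (log2 fold change -7.64, SE 0.27, edgeR adjusted p = 4.53e-12). PDC1, the main pyruvate decarboxylase and the locus that carries the fluorescent protein, was at 3622, 3100.2, 5403 and 3934 CPM and then at 311, 339.8 and 318 CPM (log2 fold change -3.64, SE 0.31, edgeR adjusted p = 5.72e-08). Exponential library 3 was the highest for both decarboxylases, and the phases did not overlap.

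The genes for growth on acetate and ethanol rose almost without exception. Of 22 genes of the glyoxylate cycle, gluconeogenesis and acetate use, 21 were higher, median 5.55. ADY2, an acetate permease, was at 0.773, 0.837, 0.596 and 0.631 CPM in exponential libraries and at 984, 941 and 759 CPM in stationary ones (log2 fold change 10.30, SE 0.21, edgeR adjusted p = 1.32e-13). YAT1, a carnitine acetyltransferase, rose from 7.82 ± 0.819 to 582 ± 47.7 CPM. MLS1, malate synthase of the glyoxylate cycle, stood at 1.64, 2.80, 1.19 and 2.22 CPM and then at 899.8, 826 and 441 CPM (log2 fold change 8.52, SE 0.34, edgeR adjusted p = 1.09e-11). Stationary library 3 was the lowest of its group and still above every exponential library. Its partner ICL1, isocitrate lyase, named outside the rule for the same split, was at 889, 812 and 233 CPM in the stationary libraries. The one member that fell was ACS2, the acetyl-CoA synthetase of growth on glucose (log2 fold change -4.02, SE 0.17, edgeR adjusted p = 1.86e-11).

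Peroxisomal fatty acid oxidation rose in 13 of 14 genes, median 3.30. POX1, the acyl-CoA oxidase of its first step, was at 1.25, 1.77, 1.25 and 1.75 CPM and then at 573, 533 and 639 CPM (log2 fold change 8.59, SE 0.19, edgeR adjusted p = 2.17e-13). POT1, the thiolase of its last step, reached 261, 240.1 and 324 CPM from at most 1.46 CPM (log2 fold change 8.32, SE 0.32, edgeR adjusted p = 8.61e-12). CTA1, the peroxisomal catalase, was at 2.58 to 3.43 CPM and then at 547 to 562 CPM. ANT1, the peroxisomal ATP carrier, fell (log2 fold change -2.58, SE 0.08, edgeR adjusted p = 2.21e-12). Hexose transporters divided: of 19 tested, 13 rose and 4 fell. HXT5, a transporter known from starved and slowly growing cells, was at 7.44, 15.2, 3.12 and 7.92 CPM and then at 1612, 1574 and 1542 CPM (log2 fold change 7.55, SE 0.59, edgeR adjusted p = 1.91e-08). HXT1, the low-affinity carrier of glucose-rich medium, went the other way, from 539, 528, 539 and 531 CPM to 31.9, 30.9 and 20.1 CPM (log2 fold change -4.27, SE 0.17, edgeR adjusted p = 1.45e-11). The glucose sensor RGT2 rose from 20.9 ± 1.77 to 164 ± 7.15 CPM.

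Many steps are encoded by more than 1 gene, and some of these forms moved apart. A set of 47 genes for 20 such steps, chosen after values were seen, had members called in opposite directions in 11 steps, where 42.4% of all features were called higher and 42.2% lower. These shares are per feature and not per step. Some of the steps rest on small rises, of PYK2 (0.59, libraries overlapping), GLK1 (0.55) and PMA2 (0.89). Library size alone moved log2 fold changes by -1.04 in the median, and the steps were not counted again under it. ADH1, which makes ethanol, fell by 3.34 on the log2 scale while ADH2, which uses it, went from 1.61, 1.77, 1.60 and 1.89 CPM to 322, 304 and 223 CPM (log2 fold change 7.36, SE 0.21, edgeR adjusted p = 7.63e-13). ACS1 rose from 12.0 to 563 CPM while ACS2 fell from 332 to 20.5 CPM. GDH3, a glutamate dehydrogenase, rose from 3.64 ± 0.753 to 531 ± 36.3 CPM, and GDH1 fell from 218 ± 12.2 to 114 ± 21.3 CPM. PDC6, the third pyruvate decarboxylase, was at 0.822, 1.14, 0.959 and 0.961 CPM and then at 107, 84.9 and 44.0 CPM (log2 fold change 6.34, SE 0.29, edgeR adjusted p = 4.22e-11), opposite to PDC1 and PDC5. Among the cytosolic Hsp70 genes SSA3 rose and SSA1 and SSA2 fell. Ribonucleotide reductase genes also moved apart, with RNR3 at 6.20 and then 58.4 CPM and RNR1 at 185 and then 20.5 CPM. Reads of the near-identical forms SSA1 and SSA2, TDH2 and TDH3, and ENO1 and ENO2 may have been split or dropped in counting, since 23.6% to 58.2% of their windows recur elsewhere.

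**Figure D3:**
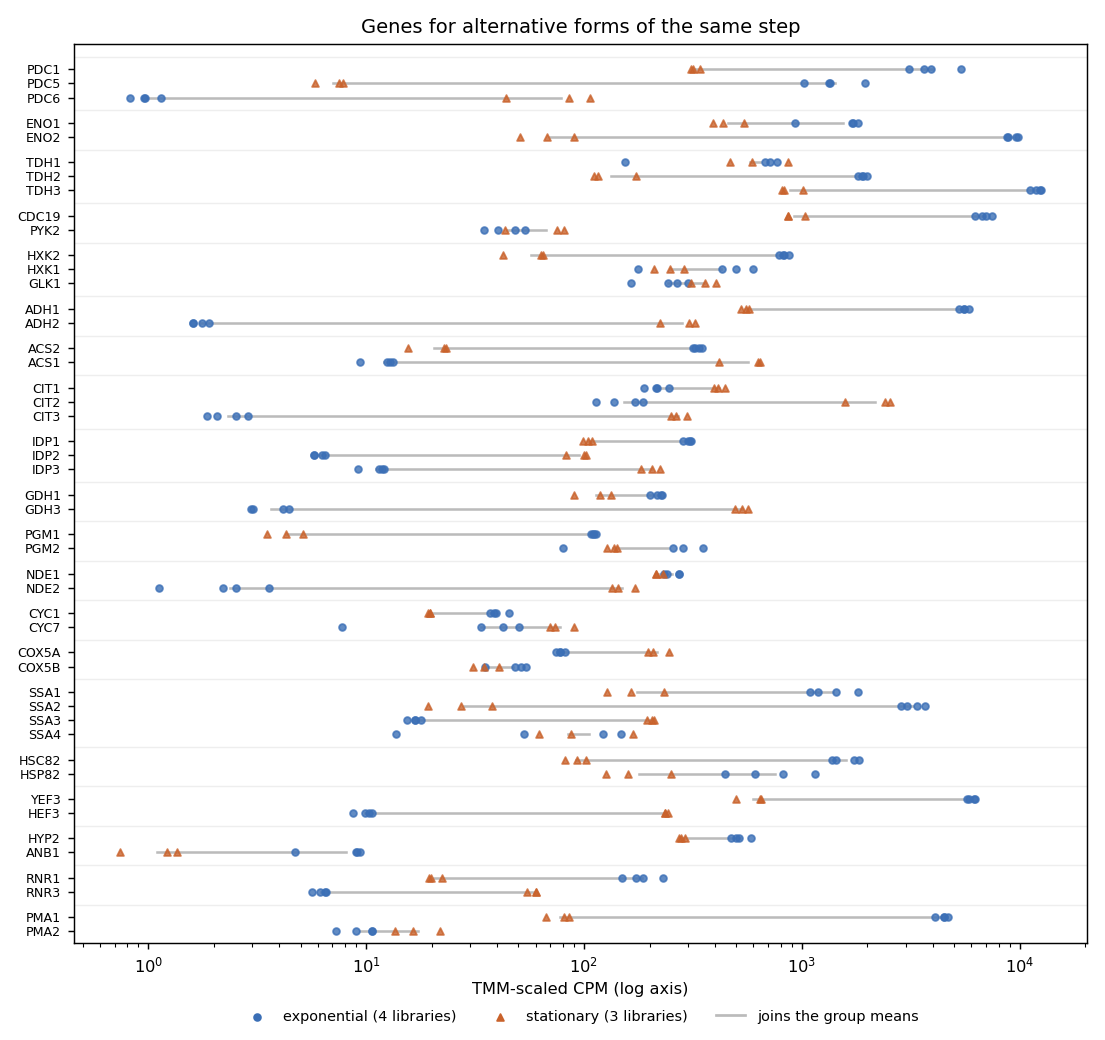
TMM-scaled CPM on a log axis of 47 genes for alternative forms of the same step, grouped by step; blue circles are the 4 exponential libraries, orange triangles the 3 stationary ones, and grey lines join the group means. ADH2, ACS1, CIT3, GDH3, NDE2 and HEF3 have their stationary libraries at the right, while ADH1, ACS2 and YEF3 have theirs at the left.

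Transcripts of the mitochondrial genome were higher in stationary cultures, and nuclear genes of the same organelle were mixed. All 7 mitochondrially encoded proteins tested rose, median 4.31. COX1, a core subunit of cytochrome c oxidase, was at 149.5, 147, 128 and 149.9 CPM in exponential and 5173, 6969 and 5494 CPM in stationary libraries (log2 fold change 5.36, SE 0.13, edgeR adjusted p = 3.65e-13). It overlaps reading frames of its own introns, so its counting is uncertain. COX3 rose from 256 ± 37.0 to 7225 ± 929.7 CPM. Among 38 nuclear genes of the respiratory chain and ATP synthase, 24 rose and 5 fell, and the median of 0.92 became -0.12 under library size alone. NDE2, an external NADH dehydrogenase, was at 2.53, 3.59, 1.12 and 2.21 CPM and then at 171, 144 and 135 CPM (log2 fold change 5.99, SE 0.33, edgeR adjusted p = 3.28e-10). Cytochrome oxidase subunit COX13 rose from 76.5 ± 7.61 to 393 ± 29.8 CPM, whereas CYC1, cytochrome c, fell from 40.0 ± 3.54 to 19.5 ± 0.144 CPM.

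The tricarboxylic acid cycle was mixed, with 7 of 18 genes (38.9%) higher and 9 (50.0%) lower, near the 42.4% and 42.2% of all features. Its median of -0.26 became 0.36 with the total of nuclear protein-coding genes. CIT3, a mitochondrial citrate synthase, was at 2.07, 2.52, 1.86 and 2.88 CPM and then at 296, 266 and 250.3 CPM (log2 fold change 6.86, SE 0.21, edgeR adjusted p = 1.23e-12). IDP1, the mitochondrial NADP-dependent isocitrate dehydrogenase, fell from 301 ± 11.3 to 104 ± 5.02 CPM. Mitochondrial ribosomal proteins rose in 44 of 71 genes and fell in 16, unlike their cytosolic counterparts, but their median of 0.30 was -0.74 under library size alone. MRPS17 rose from 22.4 ± 1.39 to 90.7 ± 2.28 CPM and MRPS5 from 25.6 ± 0.692 to 72.7 ± 5.43 CPM, while MRPL32 fell from 25.2 ± 1.498 to 4.67 ± 0.712 CPM. Of 24 genes for ubiquinone, heme and cytochrome assembly, 15 fell and 6 rose, with a median of -0.44 that became 0.18 with the protein-coding total. The heme synthesis enzymes HEM15 (-2.63) and HEM12 (-2.60) were lower, and CYC3, which attaches heme to cytochrome c, was higher (2.46).

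Protective proteins did not rise as a single class. Of 22 hydrophilin and stationary phase genes, 16 rose and 3 fell, median 3.10, or 11 and 7 under library size alone, median 2.07. Their share of nuclear protein-coding counts went from 0.284% ± 0.104 (SD, n = 4) to 5.01% ± 0.597 (SD, n = 3). SIP18, a hydrophilin that protects dried cells, had the largest rise of all named genes, from 1.97, 3.23, 1.32 and 1.74 CPM to 3752, 2973 and 5363 CPM (log2 fold change 10.93, SE 0.49, edgeR adjusted p = 3.91e-11). GRE1, its paralog, was at 2.19, 5.91, 1.77 and 1.95 CPM and then at 4251, 3985 and 4245 CPM (log2 fold change 10.46, SE 0.55, edgeR adjusted p = 2.21e-10), and its log2 fold change was 11.05 without exponential library 2, the highest of its group. SPG1, needed for survival of stationary cells at high temperature, was at 2.63, 3.81, 0.444 and 2.88 CPM and then at 1221, 1077 and 1388 CPM (log2 fold change 8.98, SE 0.71, edgeR adjusted p = 2.16e-08), with exponential library 3 the lowest. SPG5, which acts with the proteasome in stationary phase, rose from 29.2 ± 1.78 to 1608 ± 175 CPM and SNZ1 from 13.6 ± 1.59 to 1175 ± 161 CPM. NOP6, a nucleolar protein of the hydrophilin list, fell (log2 fold change -0.76, SE 0.09, edgeR adjusted p = 1.88e-06), which did not pass with the protein-coding total.

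Of 27 heat shock chaperones, 19 fell and 2 rose, median -1.12. With the protein-coding total 13 fell and 5 rose, median -0.50. SSA2, a cytosolic Hsp70, was at 3688, 3025, 3366 and 2854 CPM in exponential and 19.3, 27.2 and 37.7 CPM in stationary libraries (log2 fold change -6.85, SE 0.25, edgeR adjusted p = 4.9e-12), with 58.2% of its windows found elsewhere. HSC82, the Hsp90 of growing cells, fell from 1595 ± 228 to 92.1 ± 9.98 CPM. SSA3, the Hsp70 known from the diauxic shift, was at 17.9, 16.8, 16.8 and 15.4 CPM and then at 210.4, 196 and 206 CPM (log2 fold change 3.61, SE 0.10, edgeR adjusted p = 7.06e-13). The small heat shock protein HSP26 was the other member that rose, from 90.6 ± 57.4 to 1918 ± 299.97 CPM, and exponential library 3 held 15.9 CPM against 76.8 to 145 CPM in the other 3. The SSA2 promoter is shown because it holds a heat shock element, in capitals, searched as the triplets TTC, GAA and TTC with 2 bases between neighbours and found within 300 bases of 37.0% of these genes and 0.880% of all. The stretch is chrXII:97676-97748, minus strand, of build R64.
SSA2: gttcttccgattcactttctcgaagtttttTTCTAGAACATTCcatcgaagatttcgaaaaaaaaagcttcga

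Oxidative stress genes split into 11 higher (36.7%) and 14 lower (46.7%) of 30, near the 42.4% and 42.2% of all features. Their median of -0.09 became 0.52 with the protein-coding total. YHB1, a flavohemoglobin that removes nitric oxide, was at 502, 519.6, 484 and 525 CPM and then at 3.73, 5.29 and 5.94 CPM (log2 fold change -6.67, SE 0.20, edgeR adjusted p = 1.23e-12). TSA1, the main cytosolic peroxiredoxin, fell from 987 ± 99.4 to 89.8 ± 10.6 CPM, and TRX3, the mitochondrial thioredoxin, rose from 21.4 ± 2.00 to 110.3 ± 9.23 CPM. Trehalose, a storage and protective sugar, had 3 genes higher and 3 lower of 7 (42.9% each), also near the shares of all features. Its median of -0.25 became 0.37 with the protein-coding total. The trehalases ATH1 (3.28) and NTH2 (1.65), which break the sugar down, rose, and TPS3, a subunit of the synthase, fell (log2 fold change -2.17, SE 0.14, edgeR adjusted p = 1.97e-09). Glycogen genes rose in 8 of 16 cases and fell in 4, with a median of 0.81 that became -0.23 under library size alone. Glycogenin GLG2 rose from 14.3 ± 0.524 to 47.8 ± 0.62 CPM, and the phosphoglucomutase PGM1 fell from 111 ± 2.45 to 4.31 ± 0.811 CPM. SGA1, a glucoamylase known from sporulation, rose from 1.35 ± 0.202 to 10.3 ± 1.06 CPM.

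Genes of the proteasome, which degrades tagged proteins, were lower. Of 35 proteasome genes, 34 fell, median -1.13, and 25 fell and 4 rose with the protein-coding total. PRE9, a core particle subunit, was at 166, 156, 161 and 169 CPM and then at 39.5, 37.8 and 38.8 CPM (log2 fold change -2.07, SE 0.07, edgeR adjusted p = 2.19e-12), and RPT5, an ATPase of the cap, fell alike (log2 fold change -1.90, SE 0.07, edgeR adjusted p = 5.53e-12). The single rise was that of RPN4, the transcription factor that activates proteasome genes, at 76.8, 88.9, 60.9 and 75.8 CPM and then at 261, 251 and 206 CPM (log2 fold change 1.66, SE 0.16, edgeR adjusted p = 1.65e-07). The PRE9 and RPT5 promoters are shown because both hold PACE (GGTGGCAAA), the element that Rpn4 binds, in capitals. It was found before 77.1% of proteasome genes and 1.24% of all genes tested. The 27 genes with it had a median of -1.19 and the 8 without it, RPN4 among them, -0.97. The stretches, of build R64, are chrVII:761203-761271, plus strand, and chrXV:544835-544903, plus strand.
PRE9: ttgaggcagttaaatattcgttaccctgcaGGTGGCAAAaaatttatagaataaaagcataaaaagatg
RPT5: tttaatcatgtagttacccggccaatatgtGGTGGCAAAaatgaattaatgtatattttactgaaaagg

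Autophagy, the delivery of cell contents to the vacuole, rose in 29 of 37 genes and fell in 6, with a median of 0.89. Under library size alone 16 rose and 13 fell, median -0.15. ATG11, an adaptor of selective autophagy, was at 23.3, 24.3, 25.9 and 26.1 CPM and then at 212, 211 and 193 CPM (log2 fold change 3.04, SE 0.08, edgeR adjusted p = 5.37e-13). ATG40, a receptor for the endoplasmic reticulum, rose from 8.94 ± 0.241 to 50.1 ± 2.03 CPM. ATG27, a membrane protein of the cycling of Atg9, fell (log2 fold change -1.86, SE 0.07, edgeR adjusted p = 5.49e-12).

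Genes of sterol and amino acid synthesis were mostly lower. All 24 ergosterol genes were lower, median -2.40: ERG6, a sterol methyltransferase, was at 162, 155, 182 and 142 CPM and then at 5.39, 7.09 and 5.85 CPM (log2 fold change -4.71, SE 0.12, edgeR adjusted p = 5.42e-13), and ERG10, the first enzyme of the pathway, fell from 247 ± 15.8 to 31.6 ± 0.74 CPM. With the protein-coding total 20 ergosterol genes fell and 1 rose, median -1.78. Of 68 amino acid synthesis genes 58 fell and 7 rose, median -2.13. LYS9, of lysine synthesis, was at 1094, 1093, 1302 and 1212 CPM and then at 13.9, 13.3 and 14.1 CPM (log2 fold change -6.42, SE 0.13, edgeR adjusted p = 1.32e-13). CYS3, of cysteine synthesis, fell from 259.6 ± 10.2 to 5.22 ± 0.353 CPM. The site of their activator Gcn4 (TGACTC) lay before 60.3% of the list and 7.89% of all genes. Members with it had a median of -2.19 and members without it -1.87. MET17, a member of this list, passed in neither direction (log2 fold change -1.29, SE 1.89, edgeR adjusted p = 0.531), with the libraries split as described above.

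Of 21 nitrogen permeases, 11 (52.4%) were higher and 8 (38.1%) lower, near the 42.4% and 42.2% of all features. Their median of 1.28 became 0.21 under library size alone, with 10 higher and 10 lower. The proline permease PUT4 was at 2.11, 3.52, 1.99 and 2.21 CPM and then at 208, 188 and 166 CPM (log2 fold change 6.26, SE 0.20, edgeR adjusted p = 2.11e-12). The ammonium permease MEP2 rose from 10.3 ± 0.535 to 46.3 ± 5.05 CPM, and the glutamine permease GNP1 fell from 124 ± 9.97 to 14.98 ± 0.349 CPM. The phosphate regulon rose in 10 of 18 genes (55.6%) and fell in 3 (16.7%), against 42.4% and 42.2% of all features. Its median of 0.56 became -0.49 under library size alone. PHO89, a sodium-phosphate cotransporter, was at 1.56, 1.27, 0.865 and 1.25 CPM and then at 220.4, 168 and 84.6 CPM (log2 fold change 7.00, SE 0.33, edgeR adjusted p = 5.58e-11), and its stationary libraries spread more than most. GDE1, a glycerophosphocholine phosphodiesterase, rose (1.11), which did not pass under library size alone (0.07). VTC2, of polyphosphate synthesis, fell (-1.29).

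The iron regulon rose in 18 of 27 genes and fell in 4, median 1.13, whereas under library size alone 6 rose and 11 fell, median 0.09. CCC2, the pump that loads copper onto the iron oxidase, was at 32.0, 29.1, 28.4 and 30.1 CPM and then at 175, 163 and 125 CPM (log2 fold change 2.37, SE 0.11, edgeR adjusted p = 5.58e-11). FET5, a multicopper oxidase of the vacuole, rose (log2 fold change 1.17, SE 0.06, edgeR adjusted p = 2.43e-10), which did not pass under library size alone, and the reductase FRE1 fell (log2 fold change -1.48, SE 0.14, edgeR adjusted p = 2.21e-07). The CCC2 and FET5 promoters are shown because they hold the site of the iron regulators Aft1 and Aft2 (TGCACCC or its reverse complement GGGTGCA), in capitals. The site was found before 55.6% of the list and 1.36% of all genes. The 15 genes with it had a median of 0.61 and the 12 without it 1.14. The stretches, of build R64, are chrIV:1005375-1005469, plus strand, and chrVI:48981-49047, plus strand.
CCC2: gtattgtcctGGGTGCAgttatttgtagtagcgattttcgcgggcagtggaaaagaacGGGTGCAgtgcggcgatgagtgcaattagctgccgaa
FET5: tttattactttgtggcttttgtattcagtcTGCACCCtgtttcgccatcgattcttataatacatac

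Histone and cyclin genes were mostly lower. Of 11 histone genes 10 were lower and none higher, median -1.25. With the protein-coding total 7 were lower and 1 higher, median -0.64. HTA2, a histone H2A gene, was at 467, 444, 397 and 470.1 CPM and then at 26.4, 22.8 and 23.5 CPM (log2 fold change -4.20, SE 0.12, edgeR adjusted p = 7.06e-13), and its neighbour HTB2, a histone H2B gene, fell from 332 ± 13.4 to 49.5 ± 3.14 CPM. Cyclins and their inhibitor fell in 8 of 11 genes, median -2.36. The mitotic cyclin CLB1 was at 49.9, 44.6, 63.7 and 49.6 CPM and then at 3.66, 4.45 and 4.16 CPM (log2 fold change -3.67, SE 0.16, edgeR adjusted p = 2.58e-11), and the G1 cyclin CLN3 fell from 48.5 ± 8.80 to 8.11 ± 1.28 CPM. The S phase cyclin CLB5 was higher, from 11.5 ± 1.06 to 27.1 ± 0.901 CPM (log2 fold change 1.24, SE 0.15, edgeR adjusted p = 1.76e-06), but did not pass under library size alone. DNA replication genes fell in 28 of 38 cases and rose in 5, median -0.65. With the protein-coding total 13 fell and 13 rose, median -0.03, and their share of nuclear protein-coding counts was 0.338% ± 0.0185 (SD, n = 4) and 0.308% ± 0.0142 (SD, n = 3). POL30, the sliding clamp, was at 49.9, 47.5, 65.8 and 52.4 CPM and then at 6.21, 8.21 and 6.90 CPM (log2 fold change -2.93, SE 0.15, edgeR adjusted p = 1.96e-10). The clamp loader subunit RFC5 fell from 45.9 ± 3.15 to 7.38 ± 0.716 CPM, and RNR3, a ribonucleotide reductase known from DNA damage, rose (log2 fold change 3.24, SE 0.08, edgeR adjusted p = 3.65e-13). The POL30 promoter is shown for its MCB element (ACGCGT, in capitals), the G1 element found before 36.8% of the replication genes and 3.61% of all. The stretch is chrII:425926-425991, minus strand, of build R64.
POL30: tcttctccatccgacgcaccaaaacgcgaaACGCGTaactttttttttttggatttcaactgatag

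Genes of meiosis and sporulation, which haploid cells do not carry out, rose in 33 of 43 cases and fell in 3, median 1.71, from very low levels, and under library size alone 22 rose and 9 fell, median 0.67. The whole list took 0.0141% to 0.0169% of nuclear protein-coding counts while cells grew and 0.142% to 0.165% in stationary libraries. SPO20, a membrane fusion protein of the spore membrane, was at 1.12, 1.08, 1.03 and 1.29 CPM and then at 98.6, 78.9 and 64.8 CPM (log2 fold change 6.16, SE 0.15, edgeR adjusted p = 2.39e-13). SPS100, a spore wall protein, rose from 1.44 ± 0.497 to 239 ± 22.3 CPM and lies across an antisense transcript. SPO16, a meiotic crossover protein, was at 3.04, 2.19, 2.49 and 2.55 CPM and then at 0.169, 0.498 and 1.32 CPM (log2 fold change -1.99, SE 0.45, edgeR adjusted p = 0.000859), with a log2 fold change of -3.004 without stationary library 3. Mating type markers were read to check the labelled MATa type. All 7 a-cell genes fell but stayed present. The pheromone receptor STE2, whose promoter also drives the histidine marker, was at 279.9, 279.8, 317 and 290.1 CPM and then at 32.1, 34.4 and 34.4 CPM (log2 fold change -3.12, SE 0.11, edgeR adjusted p = 3.68e-12). The others, MFA1, MFA2, STE6, BAR1, AGA2 and ASG7, had log2 fold changes of -3.86 to -1.59. The 4 alpha-cell genes were all higher at a low level, where their summed share of nuclear protein-coding counts was 0.00282% to 0.00311% and then 0.00956% to 0.0106%. STE3 rose from 3.72 ± 0.63 to 15.3 ± 2.36 CPM and MF(ALPHA)1 from 0.304 ± 0.0837 to 1.91 ± 0.63 CPM. MF(ALPHA)2 went from 0.107 to 2.10 CPM, while SAG1 had 13.4 to 14.3 CPM and then 19.2 to 22.5 CPM, a direction that turned under library size alone. A part of other cells in these values was not tested.

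Regulators of nutrient signalling rose in 32 of 49 cases and fell in 6, with a median of 0.88 that became -0.17 under library size alone. SIP2, a beta subunit of the Snf1 kinase that switches on genes for other carbon sources, was at 16.6, 15.4, 13.6 and 14.0 CPM and then at 86.6, 76.1 and 67.6 CPM (log2 fold change 2.36, SE 0.10, edgeR adjusted p = 1.63e-11). RDS2, a regulator of gluconeogenesis, rose from 21.0 ± 1.06 to 66.6 ± 5.26 CPM. SNF4, the activating subunit of the same kinase, fell from 78.9 ± 4.67 to 30.8 ± 0.88 CPM (log2 fold change -1.36, SE 0.09, edgeR adjusted p = 4.51e-09).

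**Figure D4:**
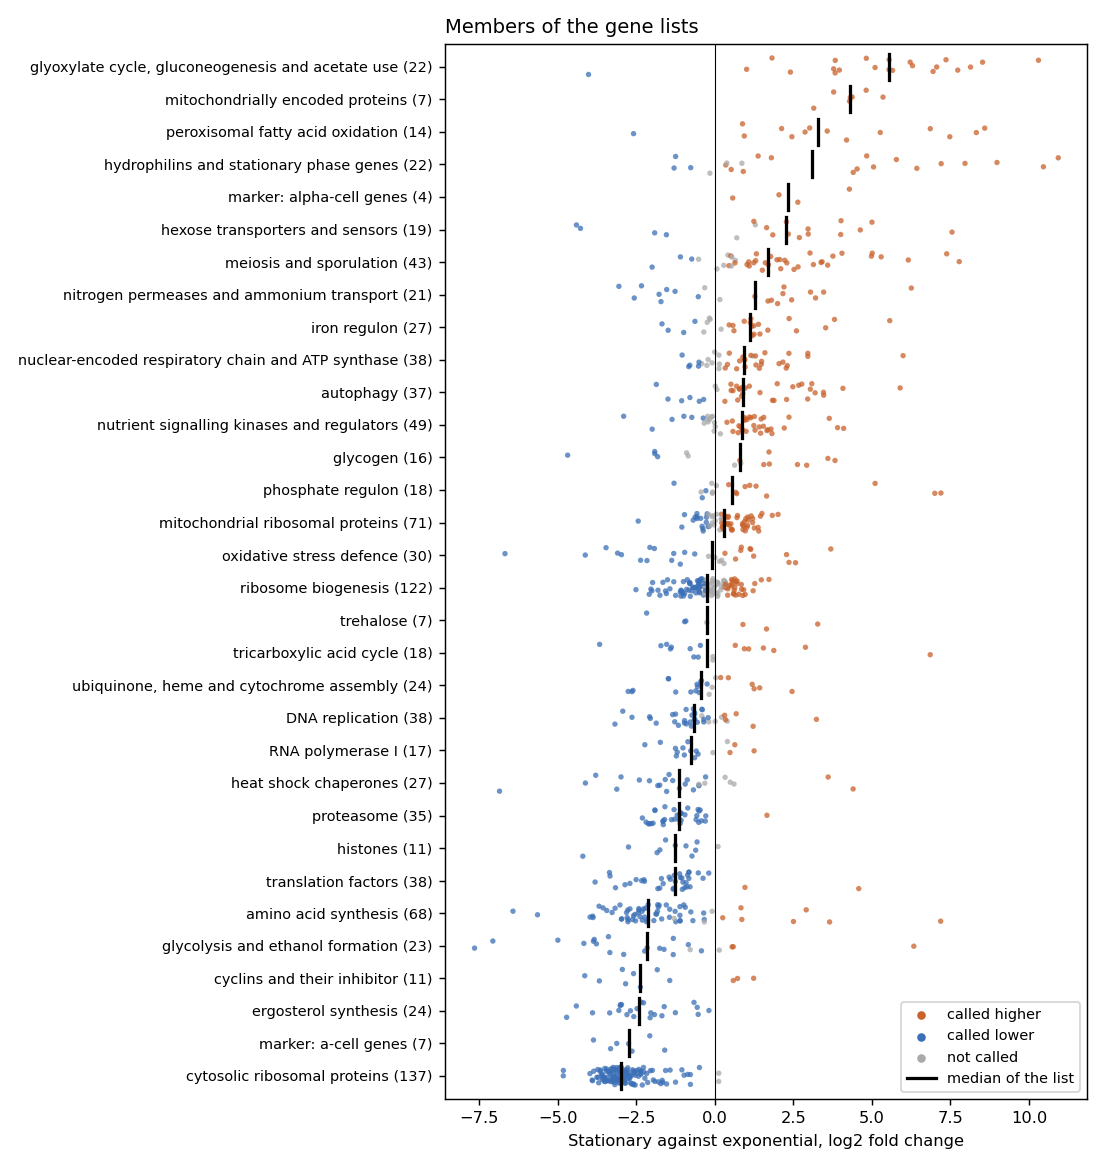
Log2 fold change, stationary against exponential, of the tested members of the 32 gene lists and marker lists, ordered by their median (black bar), with the number of members in brackets; orange members were called higher, blue lower and grey neither. Medians run from -2.99 for cytosolic ribosomal proteins to 5.55 for glyoxylate cycle genes; 6 medians between 0.30 and 0.92 turn negative under library size alone and 5 between -0.44 and -0.09 turn positive with the total of nuclear protein-coding genes.

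Other large changes lay outside these lists. RGI2, a protein of respiratory growth, was at 0.329, 1.36, 0.269 and 1.16 CPM in exponential and 380.5, 341 and 453 CPM in stationary libraries (log2 fold change 8.98, SE 0.55, edgeR adjusted p = 1.14e-09). DPA10 was at 0.329, 0.375, 0.222 and 0.416 CPM and then at 653, 596 and 319 CPM (log2 fold change 10.61, SE 0.34, edgeR adjusted p = 2.11e-12), and DPC7 rose from 1.78 ± 0.621 to 771 ± 74.3 CPM. Among the falls, PMA1, the proton pump of the plasma membrane, was at 4674, 4470.2, 4482 and 4093 CPM and then at 66.7, 85.3 and 81.3 CPM (log2 fold change -5.83, SE 0.13, edgeR adjusted p = 2.39e-13). MRH1, a membrane protein of the Hsp30 family, fell from 819 ± 29.2 to 13.1 ± 1.49 CPM, UTR2, a cell wall transglycosidase, from 228 ± 23.7 to 2.49 ± 0.487 CPM, and IMD2, an IMP dehydrogenase of guanine nucleotide synthesis, from 143 ± 16.4 to 2.20 ± 0.698 CPM. IMD2 shares 33.7% of its windows with other places in the genome. YER138W-A fell from 11.4 ± 1.21 to 0.196 ± 0.0636 CPM, but shares 98.2% of them, so its source is uncertain.

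**Figure D5:**
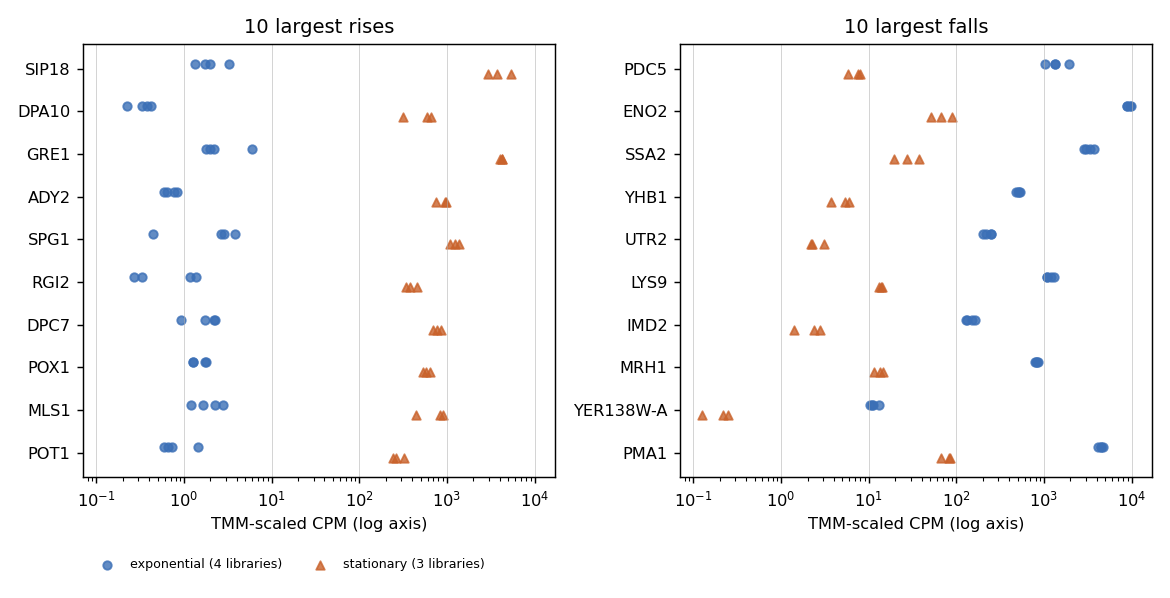
TMM-scaled CPM on a log axis of the 10 protein-coding genes with the largest rises (left) and the 10 with the largest falls (right); circles are the 4 exponential libraries and triangles the 3 stationary ones. Non-overlap between the phases was a condition of the choice; SIP18 runs from 1.32 to 3.23 CPM up to 2973 to 5363 CPM, and PDC5 from 1024 to 1942 CPM down to 5.82 to 7.87 CPM.

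The same comparison in cultures with 50 mM metformin, which shares no library with this one, called 5036 of 6097 features (82.6%). Of these, 4841 were called in the same direction without metformin, which is 96.1% of the calls with and 93.8% of the calls without the drug, and 1 was called in the opposite direction. A test of the difference between the 2 phase changes called 1 feature (0.0164%), the thioredoxin reductase TRR1, and 338 passed an unadjusted p of 0.05, where 305 would with no difference. TRR1 was at 278, 275, 308 and 279 CPM in exponential and 34.7, 35.3 and 39.4 CPM in stationary libraries without metformin, and at 273 ± 7.07 (SD, n = 4) and 75.6 ± 13.4 (SD, n = 3) CPM with it. Its log2 fold change was -2.97 without and -1.86 with metformin, a difference of -1.11 (SE 0.15, edgeR adjusted p = 0.0243). The number of features called was 16 without stationary library 3, and with metformin libraries left out it was 3 without exponential library 3, 2 without stationary library 2 and 1 without stationary library 3. It was 0 without any other single library, and DESeq2 called 12.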

How the data were processed

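Total RNA of all 14 cultures was sequenced after ribosomal RNA depletion. The authors deposited raw counts per feature. The submitters' processing notes name STAR, SAMtools and HTSeq. Neither versions nor build, annotation or strand setting were given in the sources used here. All 6470 identifiers matched locus tags of the RefSeq R64 annotation, which supplied names, positions and promoter sequence. The 5 HTSeq summary rows, 6.49% to 9.78% of reads in these 7 libraries, stayed out of library sizes and tests. Reads with several alignments made up 6.11% to 6.84% in exponential and 1.12% to 1.40% in stationary libraries, and ambiguous reads 0.418% to 0.432% and 1.95% to 2.02%.

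Features were filtered with filterByExpr (minimum count 10, total 15), scaled with TMM and put into a single quasi-likelihood fit of all 14 libraries by group (edgeR 4.0.16, R 4.3.3). P-values were two-sided and adjusted by Benjamini-Hochberg over all 6097 features. Alternatives used limma 3.58.1 and DESeq2 1.42.0. The fit was also run on simulated data in which 200 genes had changed counts. That setting holds no shift in the make-up of the RNA, so it does not test the scaling.

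The members and the 32 gene and marker lists were chosen with earlier results of these data known. Named genes are the 10 largest rises and falls (adjusted p under 0.05, at least 10 CPM in a group, no overlap of libraries), the 2 members of each list with the lowest p in its main direction and 1 in the other, the engineered loci and the mating markers, 115 in all. The values of 1 of them are not reported here. Replicate numbers were not used to pair the samples.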

Additional observations from a re-analysis of the deposited data

Results flagged for a closer look

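For 5 of 115 named genes, 1 of the 4 exponential libraries lay far from the others, with Dixon's ratio of the gap to the range above its 95% critical value. Chance flags about 1 in 20 groups. Library 2 was the high one for GRE1 (5.91 against 1.77 to 2.19 CPM, ratio 0.898), POT1 (1.46 against 0.596 to 0.724 CPM, ratio 0.852) and PUT4 (3.52 against 1.99 to 2.21 CPM, ratio 0.855). Library 3 was low for COX1 (128 against 147 to 149.9 CPM, ratio 0.871) and high for STE6 (221 against 179.5 to 183 CPM, ratio 0.927). Each of these genes lies clear of its stationary libraries. The phase change of TRR1 differed between cultures without and with metformin by -1.11 on the log2 scale, by the test of the difference itself.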

How the results depend on the processing

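All 115 named genes kept their direction and call with RLE and upper quartile factors, DESeq2, voom, no filter and each replicate left out, except that HIS3 did not pass without stationary library 3. Genes higher and lower numbered 1065 and 4019 with library size alone, 3377 and 1640 with the total of nuclear protein-coding genes (chosen after seeing the data), and 1262 and 1313 against a 2-fold change. With library size alone PNO1 turned to -0.12 and SAG1 to -0.48, and RRN3, CLB5, GDE1, FET5 and HIS3 lost their call. List medians turned under it for mitochondrial ribosomal proteins (-0.74), respiratory chain (-0.12), glycogen (-0.23), autophagy (-0.15), phosphate regulon (-0.49) and nutrient signalling (-0.17). With the protein-coding total they turned for ribosome biogenesis (0.37), tricarboxylic acid cycle (0.36), trehalose (0.37), oxidative stress (0.52) and ubiquinone and heme (0.18). A stricter filter turned oxidative stress to 0.00495. Features called for the difference of the phase changes, 1 in the main test, numbered 2 with library size alone, with upper quartile factors and with the stricter filter. They numbered 12 with DESeq2, 3 with the protein-coding total, 0 against a 1.5-fold or 2-fold change and 0 to 16 with single libraries left out. Without the exponential libraries, with or without metformin, of at most 3 MET17 reads (chosen after seeing the data) they numbered 0. With the replicate number as a block, 2582 were higher, 2566 lower and 0 called for that difference. Replicate numbers are those of the titles. The deposited column of stationary library 3 bears another number, so its match to exponential library 3 is uncertain. Exponential and stationary libraries without metformin that shared a title number had correlations of -0.06 to -0.03, so the title numbers showed no pairing between these groups. Libraries without and with metformin were not compared in this way. The cause of these shifts was not tested. Leaving out replicates gave 2508 to 2564 genes higher and 2519 to 2547 lower. Absolute amounts per cell cannot be read from these counts.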

Other observations

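Genes near chromosome ends were more often called higher in stationary cultures under TMM. Of 96 nuclear protein-coding genes within 10 kb of an end, 54 (56.3%) were called higher and 17 (17.7%) lower, and of 112 genes 10 to 20 kb away 65 (58.0%) and 19 (17.0%), against 41.7% and 43.5% of all 5838. Of 618 genes with only a systematic name, 343 were higher and 146 lower, a median log2 fold change of 0.72 against -0.11 for the 5220 named genes. These classes were chosen after values were seen and overlap, and the differences were not tested.

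Among the genes that set exponential library 3 apart, several picked after their values were seen are known to rise when glucose is scarce or cells are stressed. HSP30, a plasma membrane heat shock protein, was at 67.6 CPM there and at 610 to 727 CPM in the other 3, RGI1 at 40.6 against 346 to 582 CPM, HXT6, a high-affinity hexose transporter, at 3.68 against 38.8 to 90.3 CPM, and SSA4, an inducible Hsp70, at 13.7 against 52.9 to 147 CPM. The libraries of the phases overlapped for HSP30, RGI1 and SSA4. In stationary library 3, RPM1, the mitochondrial RNase P RNA, was at 922 CPM against 92.1 and 221, ERR3, an enolase-related gene, at 127 against 18.6 and 20.8, and ICL1 at 233 against 889 and 812.

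MET17 reads were missing in the same way with metformin, where exponential libraries 1 to 4 had 5937, 7876, 3 and 1 counts and the stationary libraries 738 to 1151. The exponential libraries with few or no reads thus bore the same replicate numbers without and with metformin. Whether these numbers mark a shared source was not tested.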
